A study of Homo sapiens with 15 samples.

Results

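The DYRK and HIPK kinases were followed in MDA-MB-231 cells after knockdown of YAP, TAZ or both. The members were the 8 genes DYRK1A, DYRK1B, DYRK2, DYRK3, DYRK4, HIPK1, HIPK2 and HIPK3, found by symbol among the 18858 genes of the count table, and all 8 were present. DYRK1B was chosen by its normalized counts, which were high in the co-knockdown and near siControl in the single knockdowns, so its own values are a description without a test, and the tests below concern the other 7 members. MDA-MB-231 is an established human breast adenocarcinoma line, labelled wild type before transfection. Cells were left untransfected (Control) or received a SMARTpool siRNA (a mixture of siRNAs) that was non-targeting (siControl), against YAP (siYAP), against TAZ, the product of WWTR1 (siTAZ), or against both (siYAP+TAZ). Knockdown lasted 48 h, after which all cells, transfected or not, spent 5 to 6 h on gelatin before RNA extraction. The groups had 3 libraries each, named here by the numbers in their titles. Libraries 16, 21 and 26 were Control, 17, 22 and 27 were siControl, and 18, 23 and 28 were siYAP. Libraries 19, 24 and 29 came from siTAZ, while 20, 25 and 30 came from siYAP+TAZ. The siYAP+TAZ cells took up both pools, so the larger amount of siRNA and the co-knockdown cannot be told apart.

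The DYRK and HIPK kinases form neighbouring branches of the CMGC group of protein kinases. As they are made, they phosphorylate a tyrosine in their own activation loop, and afterwards they act on serines and threonines of other proteins. DYRK1A phosphorylates LIN52, a step in the assembly of the DREAM repressor of cell cycle genes, and DYRK1B, also called Mirk, is known for its part in quiescence, where it acts on cyclin D1 and the inhibitor p27. HIPK2 is best known as a kinase of p53. YAP and TAZ are the transcriptional coactivators held back by the Hippo pathway, and in flies the HIPK orthologue promotes the activity of the YAP orthologue Yorkie.

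The libraries held 18696737 to 30107312 counted reads (median 22902846), of which the 8 kinases took 0.0356 to 0.0536%. Values are normalized counts, that is, reads scaled by TMM to a common library size, given as mean ± SD over 3 libraries. A gene passed the test at an adjusted p of at most 0.05 (edgeR, adjusted over all genes), and it was also called differentially expressed where its absolute log2 fold change was at least 1. The study describes independent sets of experiments without saying which libraries form a set, so p-values measure the spread between these libraries. YAP1 RNA lay at 4322 ± 115 in siControl, at 761 to 2764 in the siYAP libraries and at 1796 to 2240 in the siYAP+TAZ libraries. WWTR1 RNA lay at 1808 ± 211 in siControl, at 254 to 828 in siTAZ and at 1123 to 1284 in siYAP+TAZ. Both targets thus lay below siControl in every library aimed at them, and every siYAP+TAZ library held more WWTR1 than every siTAZ library. WWTR1 passed the test in siTAZ (log2 -1.74, edgeR adjusted p = 0.019) but not in siYAP+TAZ (log2 -0.62, edgeR adjusted p = 0.20). YAP1, with its wide spread, passed in neither siYAP (log2 -1.51, edgeR adjusted p = 0.099) nor siYAP+TAZ (log2 -1.06, edgeR adjusted p = 0.072). Of 22 known YAP/TAZ targets, 15 fell and 1 rose in siYAP+TAZ, where 8.39% of all genes fell and 9.97% rose, among them CCN1, which encodes a matricellular protein, from 46208 ± 3976 to 20601 ± 2349, and CCN2 from 10773 ± 953 to 5413 ± 759. Of 7 genes that mark this mesenchymal line, all were expressed (VIM at 28898 ± 483 in siControl), and in siYAP+TAZ 2 fell (AXL and CAV1) and 1 rose (LGALS1). Of 7 genes expected to be low, ESR1 and CDH1 were not analysed here, PGR reached at most 7 reads in any library, and EPCAM (342 ± 36.6), GATA3 (529 ± 52.0), ERBB2 (2453 ± 265) and KRT19 (6063 ± 226) were expressed in siControl. KRT19 rose in siYAP+TAZ, to 10334 ± 1818, and what part these shifts have in the values below was not tested. In bulk RNA, fewer cells with a transcript and less of it per cell cannot be told apart.

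DYRK1B RNA was 2.93-fold higher in the co-knockdown than in siControl, and 1.20-fold and 1.17-fold higher in siYAP and siTAZ alone. The gene (ENSG00000105204) occupies chr19:39825350-39834201 on the minus strand of GRCh38 (GENCODE release 44). The siControl libraries held 268, 299 and 238 normalized counts and the Control libraries 223, 212 and 293. The siYAP libraries held 315, 328 and 327, and the siTAZ libraries 332, 332 and 281. The siYAP+TAZ libraries held 787, 811 and 767. Every co-knockdown library thus lay above every other library by a wide gap, while the siTAZ libraries overlapped siControl and the siYAP libraries lay just above it.

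The means were 268 ± 30.3 normalized counts in siControl and 788 ± 22.0 in siYAP+TAZ, a log2 difference of 1.55 (SE 0.12, 95% interval 1.31 to 1.80) on 3 against 3 libraries. In siYAP the log2 difference from siControl was 0.27 (SE 0.12) and in siTAZ it was 0.23 (SE 0.12). These sum to 0.50, so the co-knockdown stood 1.05 above the sum on the log2 scale (SE 0.16). These SEs and the interval take no account of the choice of DYRK1B for its rise, so they are no test. Directly against siYAP the co-knockdown was higher by 1.29 and against siTAZ by 1.32 on the log2 scale. Since both single knockdowns share the siControl libraries, their 2 differences are not independent. Within the runs of library numbers 16 to 20, 21 to 25 and 26 to 30, siYAP+TAZ minus siControl was 1.55, 1.44 and 1.68 on the log2 scale. Between siControl and Control the log2 difference was 0.15 (SE 0.12), with overlapping libraries. In GENCODE release 44 a second gene model on the same strand, ENSG00000291312, covers 11.1% of the exonic bases of DYRK1B. It shares 9.36% of the stretches of 50 bases of DYRK1B. The authors counted reads with an earlier GENCODE release, so whether reads there could go to either gene in these counts was not tested.

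**Figure D1:**
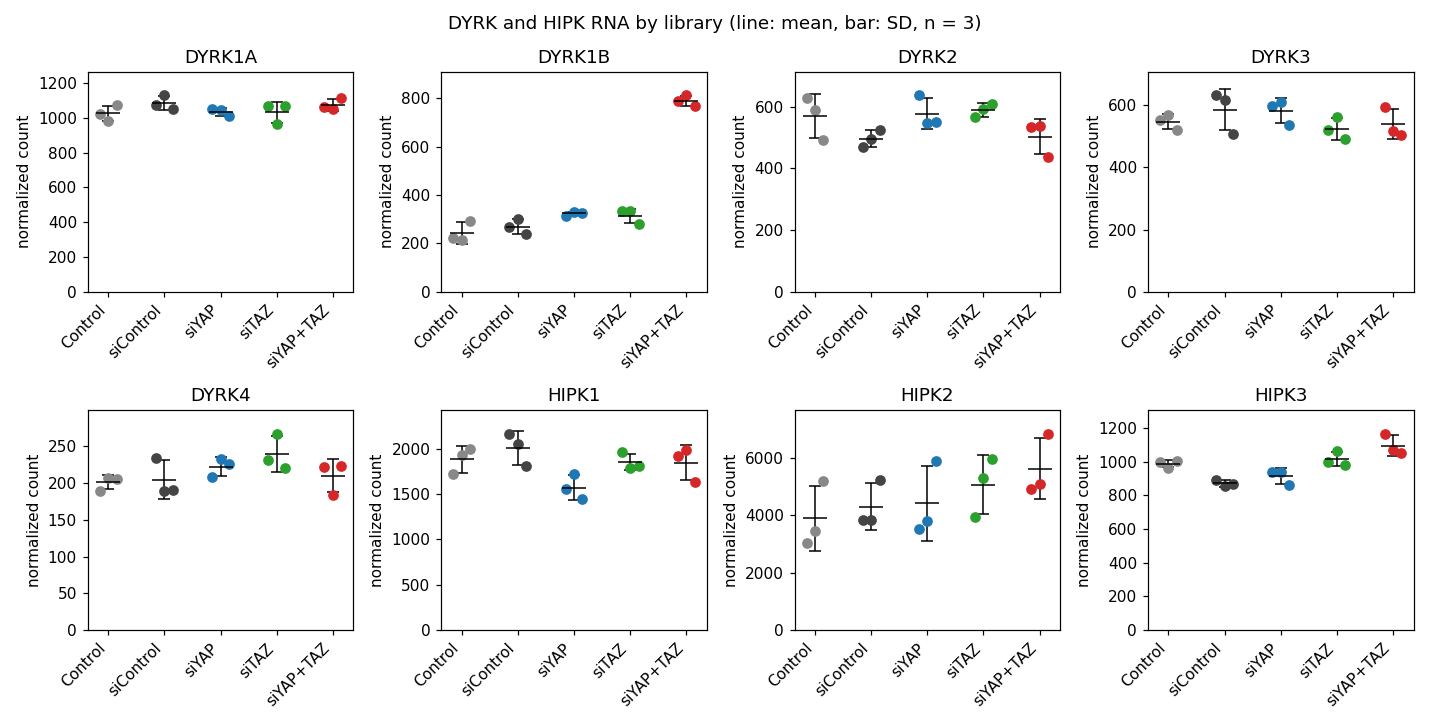
Normalized counts (y axis, from 0, a separate scale per gene) of the 8 kinases in the 15 libraries, by group on the x axis, with points for libraries, a line for the mean and bars for the SD. The siYAP+TAZ libraries stand apart for DYRK1B at 767 to 811, whereas the other panels show groups close together or overlapping, HIPK2 with the widest spread.

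The promoter window of DYRK1B is shown beside 1 of the 6 windows of its nearest relative DYRK1A, because the RNAs of these paralogues behaved so differently. The DYRK1A window was picked after the motifs were seen, as the 1 of the 6 that holds CACGTG. Both windows run 5′ to 3′ on the gene's strand, from 250 bases before to 50 bases after an annotated start (RefSeq, GRCh38.p14), and capitals mark CACGTG, the E-box bound by MYC and USF type factors.
DYRK1B promoter, chr19:39834113-39834412, minus strand: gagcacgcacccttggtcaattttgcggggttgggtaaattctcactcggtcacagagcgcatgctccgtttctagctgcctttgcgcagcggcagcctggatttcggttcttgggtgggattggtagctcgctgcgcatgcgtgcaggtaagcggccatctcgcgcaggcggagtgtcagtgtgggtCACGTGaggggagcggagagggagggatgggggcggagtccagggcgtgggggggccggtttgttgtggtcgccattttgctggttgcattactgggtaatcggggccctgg
DYRK1A promoter, chr21:37366523-37366822, plus strand: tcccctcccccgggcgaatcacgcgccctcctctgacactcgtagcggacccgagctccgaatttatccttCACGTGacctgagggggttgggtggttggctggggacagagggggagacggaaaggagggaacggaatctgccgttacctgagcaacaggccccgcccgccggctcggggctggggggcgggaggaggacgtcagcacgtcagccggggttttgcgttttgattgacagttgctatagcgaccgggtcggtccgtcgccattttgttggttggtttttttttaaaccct
The 2 windows share the stretch GTCGCCATTTTG, which begins at base 7 of DYRK1B and base 15 of DYRK1A, counting the annotated start as base 1. Neither window held CATTCC, the core of the TEAD motif through which YAP and TAZ reach DNA, or TGANTCA, the AP-1 motif, searched on both strands with each motif counted on its own, but another DYRK1A window held both. RefSeq gave 19 promoter windows for 6 of the members and none was used for DYRK2 and HIPK2. CATTCC was found in 3 of the 19, CACGTG in 2 and TGANTCA in 4, of which 2 are overlapping DYRK4 windows with the same match, against 14%, 7.26% and 7.71% of all 35116 promoter windows of that length. A match or its absence describes these letters in this window and says nothing of factor binding.

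Set against DYRK1A reads in the same library, which needs no scaling between libraries, DYRK1B went from 24.6 ± 1.90% in siControl to 73.4 ± 4.22% in siYAP+TAZ. Single libraries ranged from 22.7 to 26.4% in siControl and from 68.9 to 77.2% in siYAP+TAZ. In siYAP the ratio was 31.2 ± 1.21% and in siTAZ 30.6 ± 4.02%. As a share of the reads of all 5 DYRK genes, DYRK1B moved from 9.49 to 10.9% in siControl to 24.6 to 26.2% in siYAP+TAZ. DYRK1B thus made up a larger part of the DYRK reads in every co-knockdown library than in any siControl library.

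**Figure D2:**
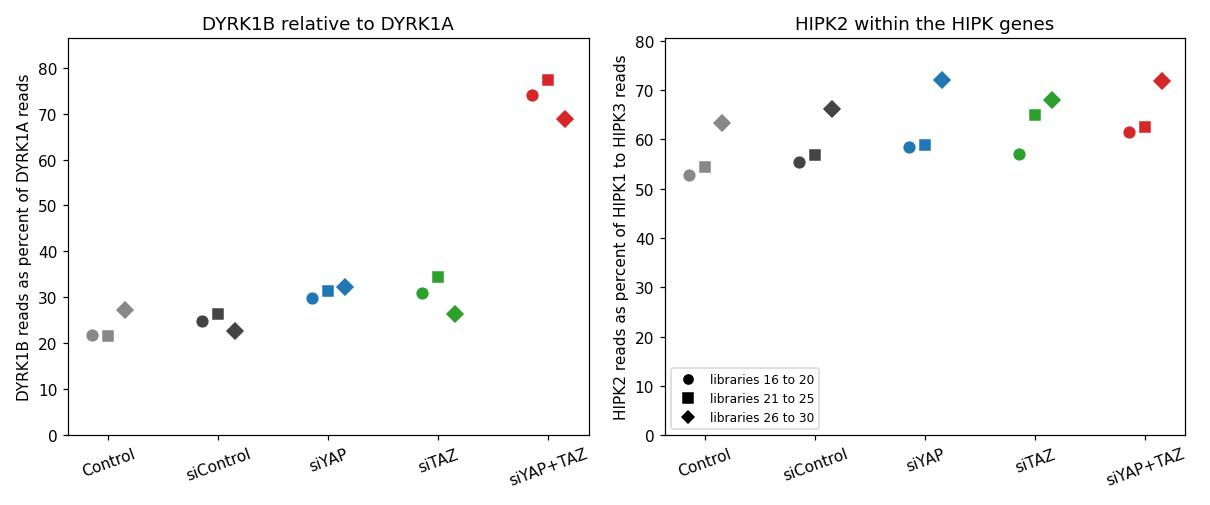
Left, DYRK1B reads as percent of DYRK1A reads in each library, and right, HIPK2 reads as percent of HIPK1, HIPK2 and HIPK3 reads, with groups on the x axis and symbols for the 3 runs of library numbers. On the left siYAP+TAZ lies at 68.9 to 77.2% and every other library at or below 34.4%, and on the right the libraries numbered 26 to 30 are the highest of each group.

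Levels of different genes were compared as RPKM, that is, reads scaled by exon length and library size, with all annotated exons of a gene joined, which lowers the value of a gene with long or many rarely used exons. In siControl the order was HIPK2 (11.6, libraries 10.3 to 14.2), HIPK1 (9.30, 8.36 to 10.0), HIPK3 (4.52, 4.43 to 4.63), DYRK1B (3.55, 3.16 to 3.96), DYRK3 (2.404, 2.09 to 2.59), DYRK2 (2.21, 2.10 to 2.33), DYRK1A (1.72, 1.66 to 1.79) and DYRK4 (1.23, 1.14 to 1.41). Among neighbours in that order, the libraries of DYRK3 and DYRK2 overlapped and those of the others did not. In siYAP+TAZ DYRK1B moved from the fourth to the second place, at 10.4 RPKM (10.2 to 10.7), above HIPK1 at 8.55 (7.54 to 9.19). HIPK4, the remaining HIPK gene, had 1 to 7 reads in every library, and 55.9% of its exonic bases lie opposite PLD3, so it was near the limit of detection.

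Of the 7 members other than DYRK1B, 1 passed the test in siYAP+TAZ against siControl, namely HIPK3, where 18.4% of all genes passed. None of the 7 passed in siYAP or in siTAZ against siControl, where 0.933% and 2.03% of all genes did. The median log2 difference of all genes was -0.0048 in siYAP+TAZ. The 95% intervals of the 7 members in siYAP+TAZ reached at most 0.97 (HIPK2) on the log2 scale.

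**Figure D3:**
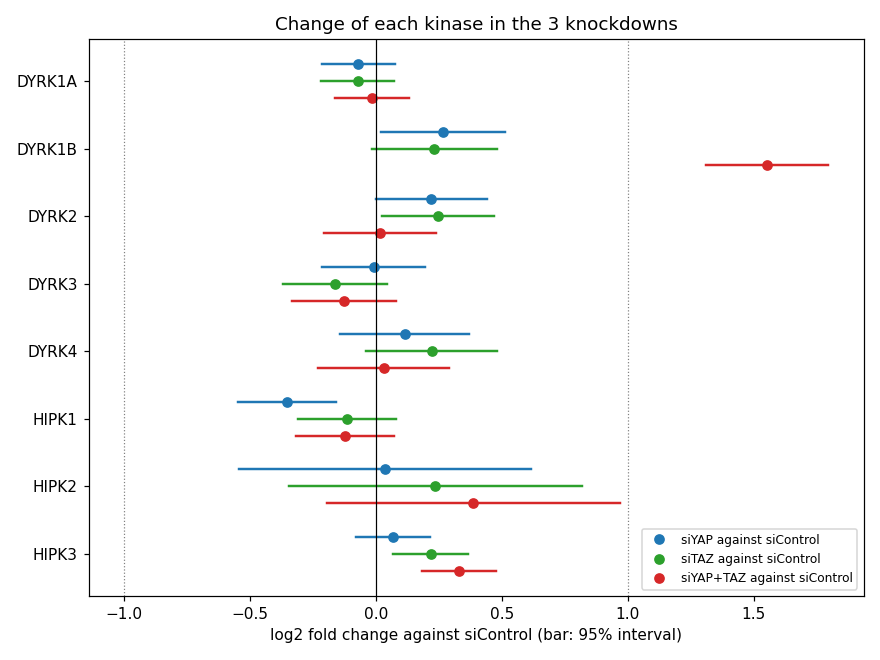
Log2 fold change against siControl (x axis) of each kinase (y axis) in siYAP, siTAZ and siYAP+TAZ, with bars for the 95% interval and dotted lines at a log2 fold change of 1 in either direction. DYRK1B in siYAP+TAZ lies at 1.55 beyond the dotted line, and the intervals of all other points lie below it, that of HIPK2 reaching 0.97. The intervals of DYRK1B, chosen for its rise, are a description without a test.

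DYRK1A, the kinase of LIN52 whose extra copy contributes to Down syndrome, differed little between the groups. It held 1086 normalized counts (1051 to 1130) in siControl and 1076 (1051 to 1114) in siYAP+TAZ, a log2 difference of -0.014 (95% interval -0.16 to 0.13). The intervals in siYAP (-0.21 to 0.08) and siTAZ (-0.22 to 0.07) were as narrow. DYRK3, a kinase that dissolves stress granules, went from 585 ± 67.0 to 538 ± 48.2 in siYAP+TAZ (log2 -0.12, 95% interval -0.33 to 0.08). DYRK4, the least studied of the family and the lowest here, went from 205 ± 26.0 to 210 ± 22.5 (log2 0.03, 95% interval -0.23 to 0.29). The groups of these 3 genes overlapped in each knockdown. A readthrough model, ENSG00000272921, covers 2.03% of the exonic bases of DYRK4.

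DYRK2, a kinase of p53 and a scaffold of a ubiquitin ligase, differed from DYRK1B in its order of groups. Its siControl libraries held 469, 496 and 522 normalized counts. The siYAP libraries held 636, 546 and 549, the siTAZ libraries 566, 591 and 609. The siYAP+TAZ libraries held 534, 536 and 437, which overlaps siControl and lies below all libraries of either single knockdown, where 24.7% (siYAP) and 23.4% (siTAZ) of all genes did not overlap with siYAP+TAZ in either direction. Against siControl the log2 difference was 0.22 in siYAP (SE 0.10, edgeR adjusted p = 0.42) and 0.25 in siTAZ (SE 0.11, edgeR adjusted p = 0.25), both without overlap, as held for 19.5% and 20.9% of all genes. From the sum of these the co-knockdown departed by -0.45 on the log2 scale (interaction, SE 0.15, edgeR adjusted p = 0.64). The Control libraries, at 626, 590 and 490, overlapped both single knockdowns, and with Control as the reference siYAP differed by 0.02 on the log2 scale (edgeR adjusted p = 0.97), siTAZ by 0.05 (adjusted p = 0.86, same test). Its co-knockdown difference was then -0.18 and the departure from the sum -0.25 (edgeR adjusted p = 0.80), an alternative chosen after seeing the data. None of the 7 members passed the interaction test, which 0.0106% of all genes passed. An antisense model lies opposite 6.27% of the exonic bases of DYRK2, and strand use in the counting is not stated.

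HIPK3, a kinase of the same branch as HIPK1 and HIPK2, rose in the co-knockdown by a small amount. Its siControl libraries held 893, 855 and 867 normalized counts and the siYAP+TAZ libraries 1168, 1070 and 1053. The siYAP libraries held 941, 942 and 860, and the siTAZ libraries 999, 1062 and 983. Thus siYAP+TAZ and siTAZ lay above siControl without overlap, as in 36.4% and 20.9% of all genes for either direction, and siYAP overlapped it. The log2 difference was 0.33 in siYAP+TAZ (SE 0.071, edgeR adjusted p = 0.0029), 0.22 in siTAZ (SE 0.071, edgeR adjusted p = 0.12) and 0.07 in siYAP (SE 0.071, edgeR adjusted p = 0.79). The untransfected Control libraries, at 997, 966 and 1006, lay above all 3 siControl libraries, where 5.83% of all genes did not overlap in either direction (log2 siControl minus Control -0.18, edgeR adjusted p = 0.9998). With Control as the reference, the log2 difference of siYAP+TAZ was 0.15 (edgeR adjusted p = 0.16), and the call was lost. Against siYAP, HIPK3 was higher in siYAP+TAZ by 0.26 (SE 0.070, edgeR adjusted p = 0.037, where 5.13% of all genes passed), a call lost on leaving out any of the 6 libraries (adjusted p 0.050 to 0.16). Against siTAZ the log2 difference was 0.11 (edgeR adjusted p = 0.43), and none of the 7 members passed there, against 5.44% of all genes.

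HIPK1 was lowest in siYAP. The siControl libraries held 2170, 2056 and 1808 normalized counts and the siYAP libraries 1557, 1722 and 1444, without overlap, as in 19.5% of all genes for either direction. The siTAZ libraries held 1963, 1791 and 1818 and the siYAP+TAZ libraries 1926, 1988 and 1632, both overlapping siControl. The log2 difference in siYAP was -0.35 (SE 0.093, edgeR adjusted p = 0.081), and with DESeq2, by which 400 of the 18858 genes passed, it was -0.34 with an adjusted p of 0.039, so the call depends on the tool. Against siYAP the co-knockdown was higher by 0.23 on the log2 scale (SE 0.093, edgeR adjusted p = 0.17).

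HIPK2 was the most abundant of the 8 kinases in every group and the most variable. The siControl libraries 17, 22 and 27 held 3819, 3834 and 5247 normalized counts, and the Control libraries 3033, 3461 and 5186. The siYAP libraries held 3516, 3810 and 5910, the siTAZ libraries 3936, 5291 and 5972, and the siYAP+TAZ libraries 4924, 5089 and 6847. In each group the library numbered 26 to 30 was the highest, and the groups overlapped. The log2 difference in siYAP+TAZ was 0.39 (SE 0.26, 95% interval -0.19 to 0.97, edgeR adjusted p = 0.37). Taken within each run of library numbers, siYAP+TAZ minus siControl was 0.37, 0.41 and 0.38 on the log2 scale. The 3 differences were thus close to each other while the levels were not. With these runs as a replicate block, HIPK2 passed the test, as 5389 of the 18858 genes did, but the labels name no sets. HIPK2 made up 55.5 to 66.2% of the HIPK1, HIPK2 and HIPK3 reads in siControl and 61.4 to 71.8% in siYAP+TAZ. In siControl against Control none of the 7 members tested passed, as none of all genes did (0%) with edgeR or DESeq2, and 398 genes had an unadjusted p under 0.05 with edgeR.

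Around the kinases, 4 lists were counted in siYAP+TAZ against siControl, to be read against the 9.97% of all genes that rose and the 8.39% that fell. Of the 6 further CMGC relatives (CLK1, CLK2, CLK3, CLK4, PRPF4B and HIPK4), which include the kinases of splicing factors, none passed the test, and their median log2 difference was -0.11.

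Of 12 genes of the DREAM complex, whose subunit LIN52 is the DYRK1A substrate, and the related MYB-MuvB complex (MYBL2), 4 fell and none rose, with a median log2 difference of -0.20. E2F5, a repressor E2F, went from 358 ± 29.0 to 263 ± 19.4 normalized counts (log2 -0.45, edgeR adjusted p = 0.043). TFDP1, the DNA-binding partner of the E2Fs, went from 8473 ± 781 to 6777 ± 308 (log2 -0.32, edgeR adjusted p = 0.026). RBL1, the pocket protein p107, fell by 0.29 (edgeR adjusted p = 0.034) and E2F4 by 0.26 (edgeR adjusted p = 0.026) on the log2 scale. LIN52 itself had a log2 difference of -0.23 (edgeR adjusted p = 0.43). These calls were near the threshold, since leaving out siYAP+TAZ 25 or siControl 27 left 0 of 12, leaving out siYAP+TAZ 20 or siControl 22 left 1, leaving out siControl 17 left 2, and leaving out siYAP+TAZ 30 left 5. The call of E2F5 was lost with any of the 6 libraries left out (adjusted p 0.056 to 0.16 in edgeR). In siYAP against siControl 1 of the 12 fell (E2F5, log2 -0.70), as 0.456% of all genes did, and in siTAZ 1 rose (MYBL2, log2 0.44), as 1.34% of all genes did.

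Of 20 partners and substrates of the DYRK kinases, 2 rose and 2 fell (median log2 difference -0.10). SPRY2, an inhibitor of receptor tyrosine kinase signalling, rose from 2676 ± 295 to 3543 ± 222 (log2 0.40, edgeR adjusted p = 0.0023). FOXO1, a transcription factor phosphorylated by DYRK1A, rose from 46.8 ± 10.6 to 85.0 ± 29.9 (log2 0.84, edgeR adjusted p = 0.032), with libraries that overlapped at 51.4 to 108.5 against 35.4 to 56.4. CDC37, the co-chaperone that loads kinases onto HSP90, fell from 13704 ± 328 to 11076 ± 450 (log2 -0.31, edgeR adjusted p = 0.0017). CCND1, which encodes cyclin D1, fell from 25029 ± 1241 to 21096 ± 835 (log2 -0.25, edgeR adjusted p = 0.035). Leaving out any 1 of the 6 libraries ended the call of CCND1, and leaving out any of siControl 17, siControl 27, siYAP+TAZ 20 and siYAP+TAZ 25 ended that of FOXO1. With the compared groups alone in the fit, FOXO1 (adjusted p = 0.059 in edgeR) and, of the DREAM genes, RBL1 (adjusted p = 0.052 in edgeR) also missed the threshold. DCAF7, the adaptor bound by DYRK1A and DYRK1B, had a log2 difference of 0.08 (edgeR adjusted p = 0.66). None of the 20 passed in either single knockdown, where 0.933% (siYAP) and 2.03% (siTAZ) of all genes did.

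Of 17 partners and substrates of the HIPK kinases, 3 rose and none fell (median log2 difference 0.09), and SIAH2 stands in both partner lists. TP53INP1, a stress protein that works with HIPK2 and p53, had 64.4 to 70.3 normalized counts in siControl and 155 to 201 in siYAP+TAZ. Its siYAP libraries lay at 62.1 to 65.7 and its siTAZ libraries at 80.1 to 87.9. It rose by 1.38 on the log2 scale (SE 0.15, edgeR adjusted p = 4.9e-06), the 1 gene of the 4 lists past both thresholds, as 3.46% of all genes were. PML, the scaffold of the nuclear bodies in which HIPK2 is found, rose from 2101 ± 303 to 2803 ± 168 (log2 0.42, edgeR adjusted p = 0.0057). EP300, an acetyltransferase, rose from 2714 ± 82.3 to 3190 ± 160 (log2 0.23, edgeR adjusted p = 0.022), a call lost without siControl 27 or siYAP+TAZ 30. None of the 17 passed in either single knockdown, against 0.933% (siYAP) and 2.03% (siTAZ) of all genes.

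**Figure D4:**
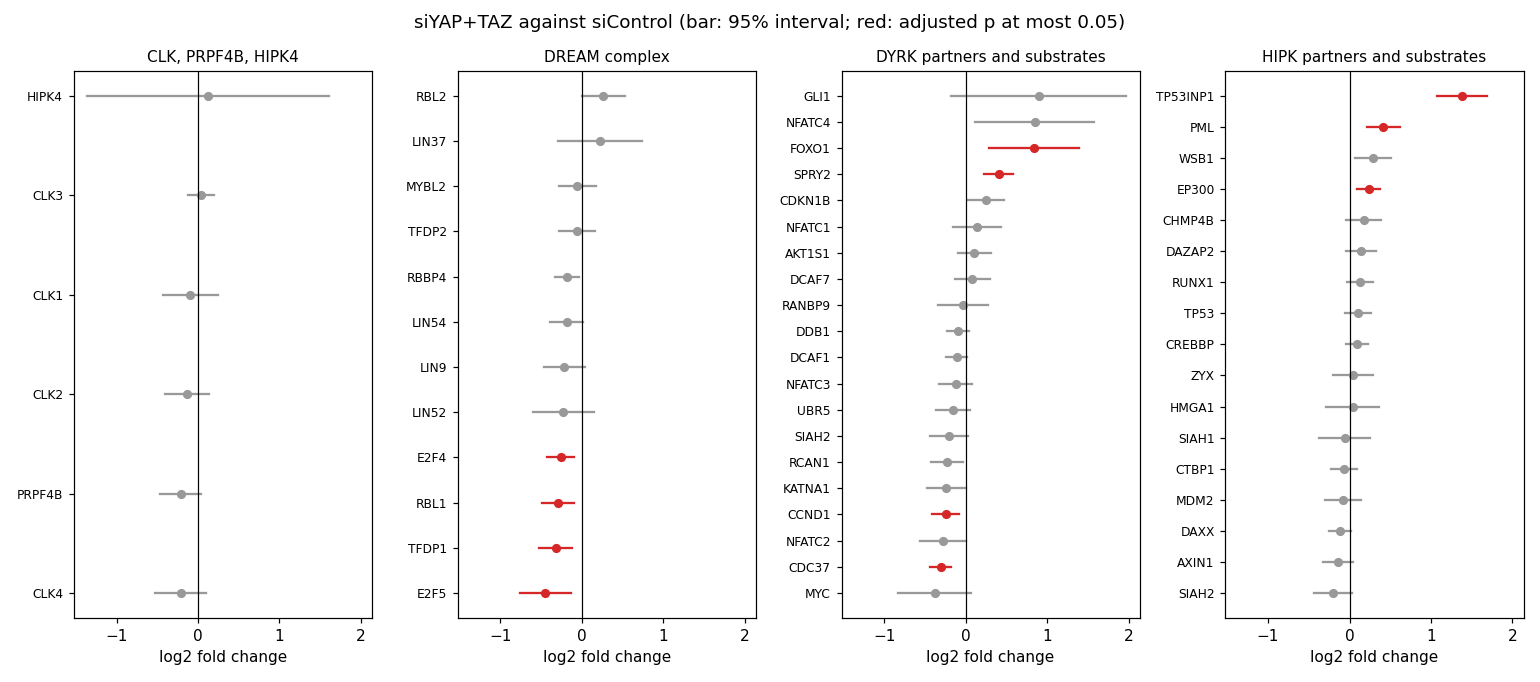
Log2 fold change in siYAP+TAZ against siControl (x axis) of the genes of the 4 lists (y axis, sorted by value), with bars for the 95% interval and red for an adjusted p of at most 0.05 in edgeR. TP53INP1 lies farthest out at 1.38, and the 4 red DREAM genes lie between -0.45 and -0.26.

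The genes whose levels were most like those of DYRK1B over the 15 libraries were sought by Pearson correlation of log2 CPM among the 13209 genes that averaged 20 or more normalized counts. The top 5 were MXD4, a MAX partner that opposes MYC (r = 0.97), CREBRF, a regulator of CREB3 (0.96), JUP, the junction protein plakoglobin (0.96), PNRC1, a nuclear receptor coactivator (0.96), and PSD3, an exchange factor for ARF6 (0.95). MXD4 went from 711 to 994 normalized counts in the siControl libraries to 2078 to 2298 in siYAP+TAZ, and PNRC1 from 153 to 251 to 783 to 828. At the other end were CD274, the immune checkpoint ligand PD-L1 (r = -0.95), CDC6, a licensing factor of DNA replication (-0.95), and FGF1, a growth factor (-0.95). CD274 went from 1173 to 1266 in siControl to 864 to 900 in siYAP+TAZ. All these values share the same libraries and scaling and rest on the 3 siYAP+TAZ libraries standing apart, so the correlations describe a shared pattern of groups.

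**Figure D5:**
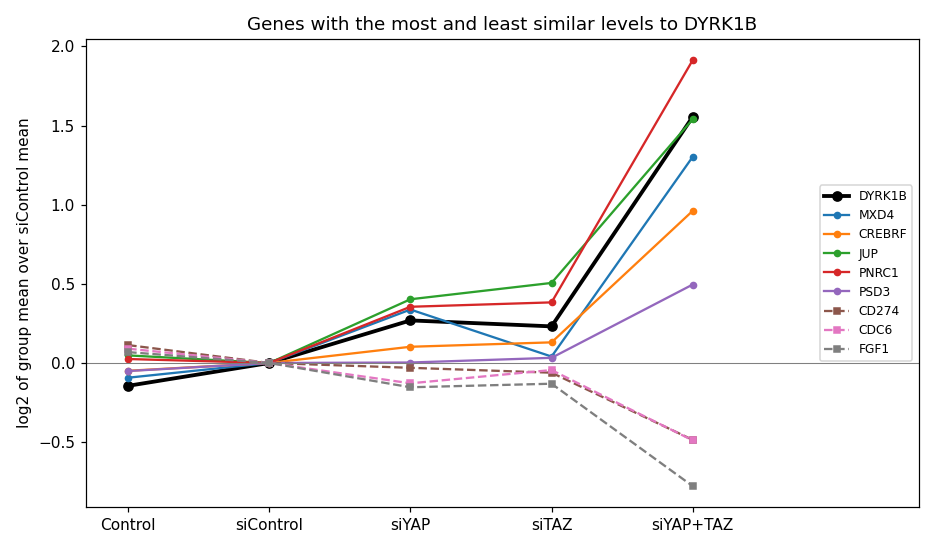
Log2 of each group mean over the siControl mean (y axis) by group (x axis) for DYRK1B (thick line), the 5 genes with the highest correlation with it (solid lines) and the 3 with the lowest (dashed lines). The lines part in siYAP+TAZ, where DYRK1B lies at 1.56.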

How the data were processed

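The 15 libraries of MDA-MB-231 RNA were put into 5 groups of 3 by sample title and treatment label. The authors prepared polyadenylated RNA libraries, trimmed the reads, aligned them with STAR 2.4.2a to GRCh38 and deposited raw read counts per gene, which were used here without recounting. The deposited normalized signal, log2 (rlog) values and DESeq2 comparisons (log2 fold changes, p-values and adjusted p-values) were not used. All 18858 genes entered edgeR 4.0.16 in R 4.3.3 (TMM, robust quasi-likelihood, 1 coefficient per group, all 15 libraries), with Benjamini-Hochberg adjustment over all genes. At 18696737 to 30107312 reads, genes with few reads carry large errors. Alternatives were DESeq2 1.42.0, its size factors, at least 10 reads in at least 3 libraries, the groups compared alone, Control as the reference, a block for library number runs and each library left out. On simulated counts edgeR recovered 193 of 200 changed genes in siYAP+TAZ against siControl among 18858, with 7 false calls. This recovery is not given by size of change. It therefore does not measure the power for small log2 differences, such as those of the members other than DYRK1B.

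The members and the lists (relatives, DREAM, DYRK partners, HIPK partners, YAP/TAZ targets, line markers) were chosen with earlier results of these data known. Named were the members, the siRNA targets, CCN1, CCN2, list genes past the test in siYAP+TAZ, HIPK4, DCAF7 and LIN52, and the 5 most and 3 least similar genes to DYRK1B. MXD4 and the other similar genes had no test, and other genes were named after their values were seen.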

Additional observations from a re-analysis of the deposited data

Results flagged for a closer look

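The following differed between siYAP+TAZ and a single knockdown by the direct edgeR comparison of these groups. Searched were the 7 members other than DYRK1B and the lists of 6 relatives, 12 DREAM genes, 20 DYRK partners and 17 HIPK partners. Of all genes, 5.13% passed against siYAP and 5.44% against siTAZ. Whether the searched genes passed more often than all genes was not tested. Against siYAP, siYAP+TAZ was higher on the log2 scale by 0.26 for HIPK3 (adjusted p = 0.037), 0.27 for EP300 (adjusted p = 0.026), 0.28 for CREBBP, the acetyltransferase related to EP300 (adjusted p = 0.019), and 1.45 for TP53INP1 (adjusted p = 2.7e-05). Against siTAZ, the log2 difference was -0.39 for RBL1 (adjusted p = 0.018), -0.49 for MYBL2, a B-MYB factor that exchanges with DREAM on the MuvB core (adjusted p = 0.013), 0.31 for SPRY2 (adjusted p = 0.035) and 1.05 for TP53INP1 (adjusted p = 0.00044). MYBL2 was higher in siTAZ than in siControl, with 2874 to 3881 against 2316 to 2487 normalized counts, and 2037 to 2646 in siYAP+TAZ. None of these genes passed the interaction test.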

How the results depend on the processing

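DYRK1B was chosen for its rise in siYAP+TAZ, so its direction there says nothing of stability. Its difference lay between 1.48 and 1.64 with a library left out and at 1.70 with Control as the reference, where siYAP stood at 0.42, siTAZ at 0.38 and the departure from their sum at 0.90, the last chosen after seeing the data. Of the 7 other members, HIPK3 passed in siYAP+TAZ against siControl with every library left out (1 member, adjusted p 0.0036 to 0.021), but 0 passed with Control as the reference. Against siYAP 0 passed with any library left out or with the compared groups alone. In siYAP 1 passed with DESeq2 (HIPK1). With library runs as a replicate block, 2 members passed in siYAP+TAZ (HIPK2, adjusted p = 0.00028, and HIPK3), 1 in siYAP (HIPK1), 2 in siTAZ (HIPK2 and HIPK3) and 3 in siYAP+TAZ against siYAP. Same-run libraries deviated together with r from -0.050 to 0.62 (26 of 30 pairs over 0.1). The labels name no sets, so the block is given as an alternative. With a library left out, 0 to 5 DREAM genes, 2 to 3 DYRK partners and 2 to 3 HIPK partners passed, and 8 DYRK partners with the block. Of all genes, 3464 passed in siYAP+TAZ against siControl and 5389 with the block. The 176 of siYAP became 400 (DESeq2), 1151 (block) and 276 (Control). The 383 of siTAZ became 802, 1942 and 642, and 147 with the compared groups alone. The 968 against siYAP became 2758 with the block, the 1025 against siTAZ 2795 and, compared groups alone, 603. With 1 library left out, the counts ranged from 2502 to 2925 in siYAP+TAZ, from 27 (without siControl 17) to 137 in siYAP, and from 68 (without siTAZ 24) to 901 (without siTAZ 19) in siTAZ. They ranged from 399 to 678 against siYAP, from 465 to 949 against siTAZ and from 0 to 5 for the interaction. The 2 of the interaction became 21 (DESeq2), 122 (block), 1 (compared groups alone) and 0 (read filter or Control), and the 0 of siControl against Control became 1 with the block.

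Some values that passed no test changed sign. With a library left out, the siYAP+TAZ difference ranged from -0.037 to 0.015 for DYRK1A, -0.029 to 0.12 for DYRK2 and -0.021 to 0.15 for DYRK4, and that of siYAP from -0.099 to 0.061 for DYRK3 and -0.23 to 0.20 for HIPK2. DYRK3 in siYAP was 0.00031 with DESeq2, 0.00055 with its size factors, 0.0071 with the read filter and 0.0043 with the compared groups alone. With Control as the reference, DYRK1A was 0.069 after co-knockdown, 0.014 after siYAP and 0.011 after siTAZ, DYRK2 -0.18 in siYAP+TAZ, DYRK3 0.092 in siYAP and HIPK3 -0.11 in siYAP. The causes were not tested.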

Other observations

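Of the 5 nearest protein-coding genes on each side of DYRK1B on chromosome 19, those on the higher-coordinate side were in the count table. Those on the other side (LEUTX, CLC, LGALS14, LGALS16 and LGALS13) were not. The neighbours were chosen after their values were seen. FBL, which encodes the nucleolar methyltransferase fibrillarin and lies 257 bases away on the same strand, fell by 0.34 on the log2 scale in siYAP+TAZ against siControl (SE 0.092, edgeR adjusted p = 0.013) at a mean of 6494 reads. FCGBP, which encodes a mucus protein, rose by 1.72 (SE 0.30, edgeR adjusted p = 6.0e-04) at a mean of 34.4 reads. PSMC4, a proteasome subunit, had a log2 difference of -0.18 (edgeR adjusted p = 0.055), and the zinc finger genes ZNF546 and ZNF780B had 0.04 (edgeR adjusted p = 0.95) and -0.23 (edgeR adjusted p = 0.38).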
